A study of Mus musculus with 6 samples.

Results

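Transcripts of 10 genes of purinergic signaling were examined in the mouse cerebellum: the P2Y receptors *P2ry12*, *P2ry13*, *P2ry14* and *P2ry6*, the P2X channels *P2rx4* and *P2rx7*, the ectonucleotidases *Entpd1* and *Nt5e*, and the adenosine receptors *Adora1* and *Adora3*. They were chosen by gene symbol, and all 10 were found among the 53746 genes of the deposited count table. Whole cerebella were compared between 3 N153SLSL/LSLPcp2-cre mice (Pcp2-cre) and 3 N153SLSL/LSL control mice, all 2 months old. Both genotypes are homozygous for a *Sting1* knockin allele that stays silent behind LoxP-Stop-LoxP until Cre acts and then gives the constitutively active N153S protein. The Pcp2-cre transgene supplies Cre in Purkinje cells. By the labels, mouse 3 of either genotype was female and the others were male. Mice that carry Pcp2-cre without the knockin allele were not analysed here, so Cre itself and the mutant cannot be told apart in this comparison.

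Cells that are active or damaged release ATP, which serves as a signal outside the cell. P2X receptors are cation channels opened by ATP, and P2Y receptors are G protein-coupled receptors for ADP, UDP and related nucleotides. *Entpd1* encodes CD39, which strips phosphates from ATP and ADP down to AMP, and *Nt5e* encodes CD73, which turns AMP into adenosine, the ligand of the Adora receptors. In the brain many of these genes are known from microglia, the resident macrophages, in which P2Y12 guides the extension of processes toward injured cells. *Adora1* is by contrast known as a neuronal receptor that dampens transmitter release.

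The genes that passed the test between genotypes were *P2ry13*, *P2ry6* and *P2rx7*, and all 3 were higher in Pcp2-cre cerebella. Among all tested genes 2.99% passed in this direction. *P2ry13* and *P2ry6* also passed the fold-change threshold of the study and were called upregulated, with log2 fold changes of 1.34 and 1.67. Such calls made up 1.37% of all tested genes. The 3 genes were not equally secure, since only *P2ry13* passed in every alternative fit. *P2ry6* lost its call in 6 of 15 alternatives, and *P2rx7* passed the test in 10 of 16. *P2ry12*, the neighbor of *P2ry13* in the genome, was not called, while 10 of 12 markers of microglia were called upregulated. The uncalled markers were *Tmem119* and *Siglech*. A missing call does not show that *P2ry12* was unchanged. From counts its log2 fold change was 0.28 (95% interval -0.11 to 0.68). Its FPKM groups did not overlap, with 2.00 to 2.45 in controls and 3.01 to 3.41 in Pcp2-cre mice. On log2(FPKM + 0.1) the change was 0.54 (limma adjusted p = 0.0778). None of the other 8 members was called in either direction, and *Adora3* was too rare to be tested.

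The sequence upstream of the 3 genes that passed the test is shown for orientation, since these members moved in one direction. Each window holds the 250 bases before the canonical Gencode M39 start, written 5′ to 3′ along the gene's strand in GRCm39. Capitals mark a match to a searched motif on either strand.
P2ry13 (chr3:59118305-59118554, reverse strand): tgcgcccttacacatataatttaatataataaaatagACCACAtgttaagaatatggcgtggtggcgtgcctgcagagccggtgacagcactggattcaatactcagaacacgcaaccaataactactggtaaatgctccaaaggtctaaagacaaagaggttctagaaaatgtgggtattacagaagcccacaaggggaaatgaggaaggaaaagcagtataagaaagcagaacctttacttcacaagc
P2ry6 (chr7:100613661-100613910, reverse strand): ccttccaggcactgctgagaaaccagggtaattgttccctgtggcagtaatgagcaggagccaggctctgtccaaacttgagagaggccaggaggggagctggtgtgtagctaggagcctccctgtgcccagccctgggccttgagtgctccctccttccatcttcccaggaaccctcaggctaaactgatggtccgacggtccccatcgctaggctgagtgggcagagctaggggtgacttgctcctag
P2rx7 (chr5:122781692-122781941, forward strand): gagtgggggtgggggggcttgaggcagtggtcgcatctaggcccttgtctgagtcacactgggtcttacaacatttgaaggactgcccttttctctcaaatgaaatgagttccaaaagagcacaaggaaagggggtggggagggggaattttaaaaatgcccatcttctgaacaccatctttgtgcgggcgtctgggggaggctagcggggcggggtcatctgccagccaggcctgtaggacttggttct

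The motifs were GAGGAAGT for PU.1, GGAA and GAAA parted by NN for a PU.1-IRF composite site, GAAA and GAAA parted by NN for IRF factors, and TGTGGT for RUNX factors, where N is any base. The composite and IRF motifs share their last letters, so matches to them can overlap. The capitals in the *P2ry13* window are a RUNX match on the opposite strand that begins 213 bases before the start. Of the 10 members, 2 held the RUNX letters, 1 the PU.1 letters (*Adora3*) and 0 either of the other motifs. Over the 21770 windows of protein-coding genes the RUNX letters were found in 13%, the PU.1 letters in 2.08%, the composite in 2.54% and the IRF letters in 3.32%. The windows of *P2ry6* and *P2rx7* held none of the 4. That of *P2ry6* lies inside the annotated gene, which reaches upstream to 100624173, so sequence before any start further upstream was not searched. The same holds for the windows of *P2ry14*, *Entpd1*, *Adora1* and *Adora3*, which also lie inside their annotated genes.

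Total counts lay between 6733178 and 10178218 per mouse, so that 3 counts, taken as the floor, equalled 0.297 to 0.447 CPM (counts scaled to a common library size), with counting error alone in view. The genotypes were compared with edgeR's quasi-likelihood test over the 16961 genes that passed a filter on low counts, and calls required a p of at most 0.05 after Benjamini-Hochberg adjustment together with a log2 fold change beyond 0.5 in either direction. Of the 10 members 9 passed that filter. Among them 2 were called upregulated and 0 downregulated, where 1.37% of all tested genes were called upregulated, 1.79% downregulated and 3.17% either way. At an unadjusted p under 0.05, 4 members were higher and 1, *P2rx4*, was lower, beside 8.36% and 9.67% of all tested genes. DESeq2 called 1 member upregulated and 0 downregulated. At any fold change 3 members were higher at the same adjusted p, and 0 were lower, beside 2.99% and 4.75% of all tested genes. The median log2 fold change of the 9 members was 0.39, against 0.0045 over all tested genes. Choroid plexus markers separated the libraries, since their summed level was 805.5 and 1246 CPM in control mice 1 and 2 and between 24.2 and 86.6 CPM in the other 4 mice.

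**Figure D1:**
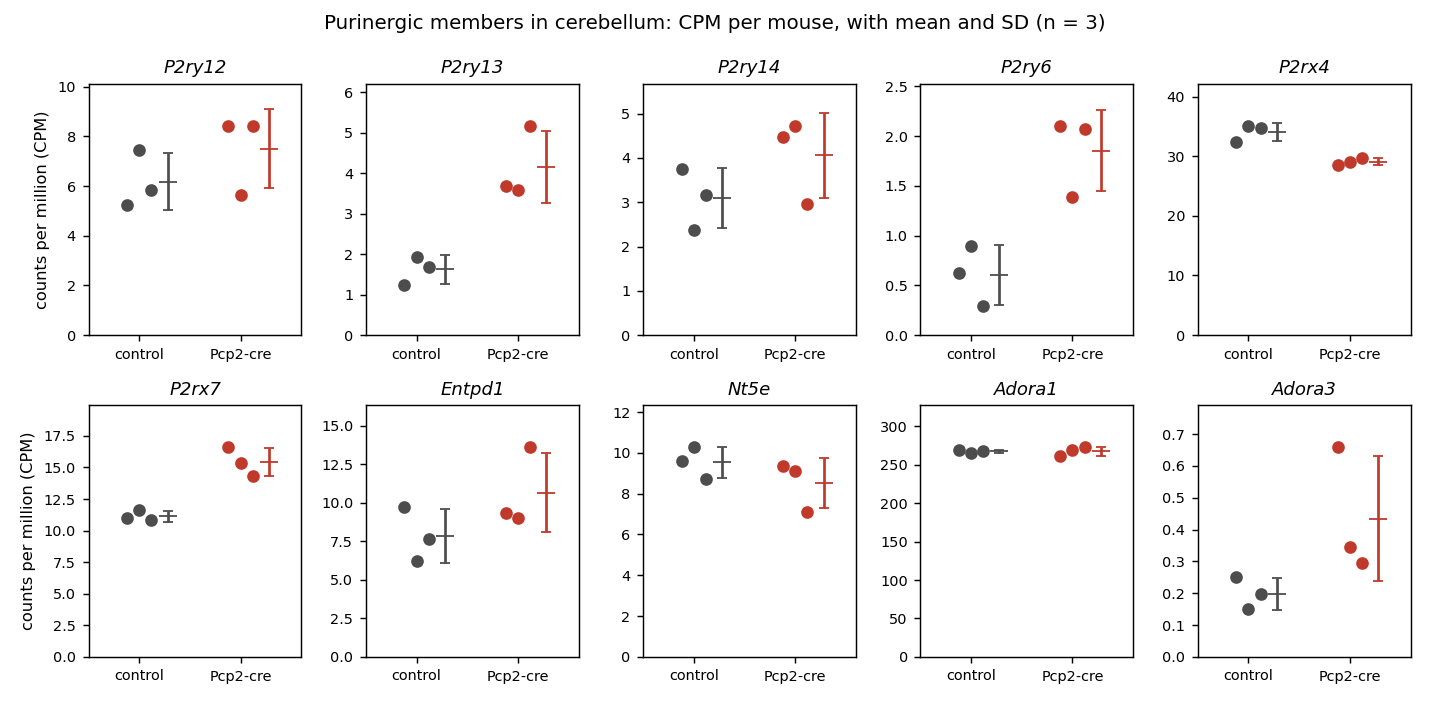
Normalized expression of the 10 genes in every mouse. Each panel plots CPM from 0 on the vertical axis for control (grey) and Pcp2-cre (red) mice, with the mean and SD of 3 mice beside the points. The groups are separated for *P2ry13*, *P2ry6* and *P2rx7* (Pcp2-cre higher) and for *P2rx4* (lower), while those of *P2ry12*, *P2ry14*, *Entpd1*, *Nt5e* and *Adora1* overlap and *Adora3* lies near the floor.

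*P2ry13* encodes an ADP receptor that couples to inhibitory G proteins. It had 10, 13 and 17 counts in controls 1, 2 and 3 and 28, 31 and 35 counts in Pcp2-cre mice 1, 2 and 3. The highest control was below the lowest Pcp2-cre mouse. In normalized terms it went from 1.62 ± 0.348 to 4.15 ± 0.894 CPM (SD, n = 3 mice each), or 1.34 as a log2 fold change with a standard error of 0.261 (edgeR quasi-likelihood adjusted p = 0.00157). The call was kept in all 16 alternative fits, DESeq2 among them, and with each mouse left out the log2 fold change stayed between 1.16 and 1.45.

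*P2ry6* encodes a UDP receptor, known in microglia for its part in phagocytosis. Few reads covered it, with 5, 6 and 3 counts in controls 1, 2 and 3 and 16, 12 and 14 in Pcp2-cre mice. The groups did not overlap, and control mouse 3 was at the floor. The level went from 0.605 ± 0.299 to 1.85 ± 0.407 CPM (SD, n = 3 mice each), or 1.67 on the log2 scale (95% interval 0.81 to 2.52, edgeR quasi-likelihood adjusted p = 0.0119). The call was lost with DESeq2 (adjusted p = 0.175), and edgeR gave 0.0799, 0.0801 and 0.0671 without control mouse 3, Pcp2-cre mouse 1 or Pcp2-cre mouse 3. The size is uncertain at these counts, and without control mice 1 and 2 together the log2 fold change was 2.56.

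*P2ry12* encodes the ADP receptor that is widely used as a marker of resting microglia. It had 42, 50 and 59 counts in controls 1, 2 and 3 and 64, 49 and 57 in Pcp2-cre mice. Scaled to library size the groups overlapped, since Pcp2-cre mouse 2 (5.66 CPM) lay below 2 of the controls (5.85 and 7.44 CPM). The log2 fold change was 0.28 with a 95% interval of -0.11 to 0.68, and edgeR's adjusted p was 0.495. No alternative fit called it.

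*P2ry14* encodes a receptor for UDP-glucose and other UDP sugars. It had 30, 16 and 32 counts in controls and 34, 41 and 20 in Pcp2-cre mice 1, 2 and 3. The groups overlapped, with Pcp2-cre mouse 3 below control mice 1 and 3. The log2 fold change was 0.39 (95% interval -0.10 to 0.88, edgeR adjusted p = 0.429). Exons of *P2ry14* share 103 bases with the lncRNA *Gm65543* on the opposite strand.

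The genes *P2ry12*, *P2ry13* and *P2ry14* form a cluster on chromosome 3 of GRCm39 and are read from the same strand. *P2ry12* lies from 59123682 to 59170429, *P2ry13* from 59114539 to 59118304, only 5377 bases away, and *P2ry14* from 59021276 to 59061134. All 3 lie inside *Med12l*, a Mediator subunit gene on the opposite strand, whose exons share 294 bases with those of *P2ry12* and 0 with those of *P2ry13* and *P2ry14*. The mean of *Med12l* was 120.2 ± 9.02 CPM in controls against 120.4 ± 5.08 CPM (SD, n = 3 mice each), and it was not called. The strand setting of the counts is not given, so reads over the shared bases cannot be assigned to *P2ry12* or *Med12l* with certainty. *P2ry6* lies apart, on chromosome 7 from 100585308 to 100624173.

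**Figure D2:**
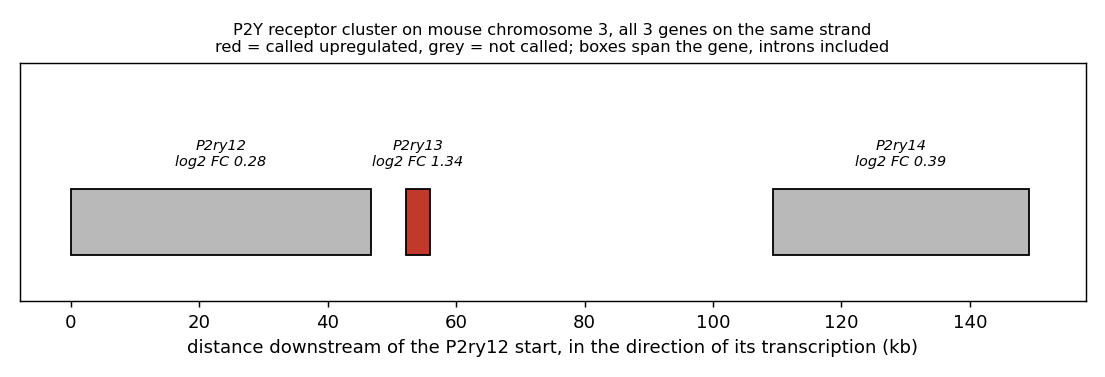
Map of the P2Y receptor cluster on chromosome 3. The horizontal axis gives the distance in kb downstream of the *P2ry12* start, boxes span each gene with its introns, red marks a called gene and grey an uncalled one. *P2ry13* (log2 fold change 1.34) stands between *P2ry12* (0.28) and *P2ry14* (0.39).

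The difference between neighbors was tested on their ratio within each mouse, as log2 CPM of one gene minus that of the other after adding a prior count of 2. *P2ry13* relative to *P2ry12* was -1.87, -1.82 and -1.66 in controls 1, 2 and 3 and -1.14, -0.63 and -0.68 in Pcp2-cre mice. Every Pcp2-cre mouse lay above every control, with a difference between the means of 0.97 (two-sided exact permutation test, p = 0.10, adjusted p = 0.125 over 5 ratios). A p of 0.10 is the smallest that 3 mice against 3 allow. On log2(FPKM + 0.1) it was 0.55. The ratio of *P2ry6* to *P2ry12* differed by 1.08 in the same direction, without overlap (exact permutation p = 0.10, adjusted p = 0.125). Both ratios share *P2ry12* and set a called gene against it, so they are not independent of each other or of the calls. How many of all genes separate from *P2ry12* in this way was not examined. Neither ratio passed a threshold of 0.05, which this test cannot reach.

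Of the P2X channels 1 passed the test. *P2rx7*, the channel that needs high ATP and is known for its link to the NLRP3 inflammasome, was covered by 88, 78 and 109 counts in controls 1, 2 and 3 and by 126, 133 and 97 in Pcp2-cre mice. After scaling the groups were apart, and the mean went from 11.1 ± 0.428 CPM in controls to 15.4 ± 1.12 CPM (SD, n = 3 mice each). At 0.48 with a standard error of 0.113 the log2 fold change did not reach 0.5, although it passed the test (edgeR quasi-likelihood adjusted p = 0.00886). It was 0.50 without control mouse 2 and 0.52 without Pcp2-cre mouse 3, which made it a call. Its edgeR adjusted p was 0.0618 without Pcp2-cre mouse 1, 0.0646 without control mice 1 and 2 together and 0.0653 with a term for choroid plexus markers. DESeq2 gave an adjusted p of 0.164, and limma on FPKM gave 0.131 and 0.153 with pseudocounts of 1 and 0.1. Opposite-strand and small RNA genes share exon bases with it (311 with the lncRNA *Gm71659*, 119 with *Mir8115*).

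*P2rx4*, an ATP-gated channel with wide expression in neurons and glia, had 259, 236 and 350 counts in controls 1, 2 and 3 and 216, 252 and 201 counts in Pcp2-cre mice. Every Pcp2-cre mouse, at 28.4 to 29.7 CPM, lay below every control, at 32.3 to 35.1 CPM. The log2 fold change was -0.23 (unadjusted 95% interval -0.38 to -0.07), and it was not called (edgeR adjusted p = 0.0753). In the FPKM values its sign turned, as described with those values. Its exons share 166 bases with the lncRNA *Gm73173* on the opposite strand. *P2rx7* and *P2rx4* are tandem neighbors on chromosome 5 of GRCm39, from 122781942 to 122830400 and from 122845541 to 122867803, 15140 bases apart on the forward strand. *P2rx7* relative to *P2rx4* was -1.54, -1.58 and -1.66 in controls and -0.77, -0.91 and -1.04 in Pcp2-cre mice 1, 2 and 3 on the log2 CPM scale. The groups did not overlap, as the CPM of the 2 genes had separated in opposite directions. The means differed by 0.69 (exact permutation p = 0.10, adjusted p = 0.125). On log2(FPKM + 0.1) the same difference was 0.28 (exact permutation p = 0.20).

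Neither ectonucleotidase was called. *Entpd1*, on chromosome 19 from 40600810 to 40731585, was covered by 78, 42 and 77 counts in controls 1, 2 and 3 and by 71, 78 and 92 in Pcp2-cre mice. The groups overlapped in CPM, where control mouse 1 (9.73 CPM) lay above Pcp2-cre mice 1 and 2 (9.35 and 9.003 CPM). Its log2 fold change was 0.41 (unadjusted 95% interval 0.04 to 0.78, edgeR adjusted p = 0.216). Control mouse 2 stood lowest with 6.25 CPM and Pcp2-cre mouse 3 highest with 13.6 CPM, and leaving them out in turn gave 0.29 and 0.21. Exons of *Entpd1* share 99 bases with the lncRNA *Gm41846* on the opposite strand.

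*Nt5e*, on chromosome 9 from 88209089 to 88254146, was covered by 77, 69 and 88 counts in controls 1, 2 and 3 and by 71, 79 and 48 in Pcp2-cre mice. The groups overlapped, and Pcp2-cre mouse 3 was the lowest of the 6 at 7.10 CPM. The log2 fold change was -0.14 (95% interval -0.45 to 0.17, edgeR adjusted p = 0.704). *Nt5e* relative to *Entpd1*, the later step of adenosine production against the earlier one, differed by -0.59 between genotypes with overlapping groups (exact permutation p = 0.30, adjusted p = 0.30). It was -0.28 without Pcp2-cre mouse 3, and on log2(FPKM + 0.1) it was -0.73 (exact permutation p = 0.10, the smallest possible).

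*Adora1*, the inhibitory adenosine receptor, was the most abundant member in FPKM. Controls 1, 2 and 3 gave 2160, 1785 and 2708 counts and Pcp2-cre mice 1985, 2328 and 1844, which is 268 ± 1.88 against 268 ± 5.77 CPM (SD, n = 3 mice each). The groups overlapped. The fitted log2 fold change was -0.0014, with the narrowest 95% interval of the 9 (-0.08 to 0.08, edgeR adjusted p = 0.994), and its sign turned in 3 of 16 alternatives. *Adora1* lies on chromosome 1 of GRCm39 from 134126948 to 134163579, and its exons share 3361 bases with *Mybph* on the opposite strand. The count table gave *Mybph* between 576 and 906 counts per mouse, while the FPKM table gave it at most 0.143 FPKM. The cause of this difference was not tested, and reads over the shared bases cannot be assigned to either gene with certainty. *Adora3*, a receptor known from mast cells and microglia, reached 2, 1 and 2 counts in controls and 5, 3 and 2 in Pcp2-cre mice. It did not pass the filter, and only Pcp2-cre mouse 1 exceeded the floor of 3 counts, so a difference was not detectable at this depth. It shares 154 exon bases with *Tmigd3* and 670 with *Gm53046* on the same strand, and reads of those stretches cannot be assigned to a single gene.

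Levels were compared between genes only in FPKM, which the authors scaled to feature length and library size. In control mice *Adora1* had 54.4 ± 1.27 FPKM and *P2rx4* 12.97 ± 0.698 FPKM (SD, n = 3 mice each), well apart from each other and from all other members. *P2ry12* (2.20 ± 0.232), *P2rx7* (2.18 ± 0.145), *Nt5e* (2.16 ± 0.143) and *Entpd1* (1.83 ± 0.456) followed, and the ranges of neighbors in this order overlapped. *P2ry14* (1.25 ± 0.169) overlapped with *Entpd1* alone, *P2ry13* (0.582 ± 0.0996) stood apart, and *P2ry6* (0.212 ± 0.107) overlapped with *Adora3* (0.147 ± 0.124). In Pcp2-cre mice 8 of the 10 kept their rank and *Entpd1* and *Nt5e* changed places.

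The FPKM table was also used as a second measure of each change. Pcp2-cre mice lay above all controls for 6 members, *P2ry12*, *P2ry13*, *P2ry14*, *P2ry6*, *P2rx7* and *Entpd1*, and below them for *Nt5e*, where 11.3% and 8.47% of all tested genes did so. In CPM 3 of the 9 tested members lay above and *P2rx4* below, where 10.8% and 11.4% of tested genes did. *P2ry12* had 2.14, 2.45 and 2.00 FPKM in controls 1, 2 and 3, against 3.24, 3.01 and 3.41 FPKM. These groups do not overlap, unlike its counts, and limma on log2(FPKM + 0.1) gave a log2 fold change of 0.54 with an adjusted p of 0.0778. *P2rx4* had 12.2, 13.04 and 13.6 FPKM in controls and 12.9, 15.03 and 14.3 FPKM in Pcp2-cre mice, which overlap, and its log2 change was 0.12 in FPKM and -0.23 in counts. The FPKM change exceeded the count change by 0.34 for *P2rx4* and 0.27 for *P2ry12* on the log2 scale and was 0.24 smaller for *P2ry13*, where the quartiles over 16961 genes were -0.04 and 0.07. The cause was not tested.

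**Figure D3:**
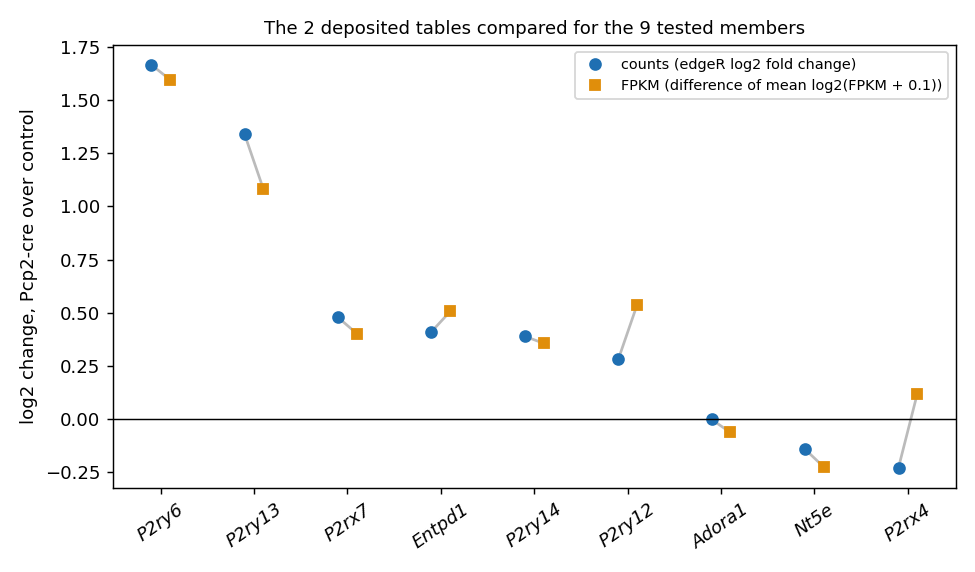
Changes in the 2 deposited tables. The vertical axis is the log2 change of Pcp2-cre over control for the 9 tested members, from counts (blue circles) and from FPKM with a pseudocount of 0.1 (orange squares). The tables give opposite signs for *P2rx4* (-0.23 and 0.12) and differ for *P2ry12* (0.28 and 0.54), and they are close for *P2ry6* and *P2rx7*.

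The members were then set beside 12 markers of microglia, of which 10 were called upregulated and 0 downregulated. *Csf1r*, *Cx3cr1* and *Aif1* had log2 fold changes of 0.96, 1.48 and 1.94, and the median of the 12 was 1.38. *Tmem119* (0.06) and *Siglech* (0.15) were not called, the latter named after its value was seen. Their summed level was 109 to 116 CPM in control and 266 to 284 CPM in Pcp2-cre mice. In whole tissue more cells of a type and more RNA per cell cannot be told apart. Of 6 markers of border macrophages 4 were tested and 0 called, with a summed level of 11.02 to 13.8 CPM in control and 12.5 to 16.7 CPM in Pcp2-cre mice. None of 6 markers of infiltrating leukocytes passed the filter, and their sum was 0.596 to 2.00 CPM in control and 1.48 to 2.77 CPM in Pcp2-cre mice. For those of platelets, in which *P2ry12* is also expressed, the sums were 2.00 to 4.46 and 2.65 to 3.25 CPM. Markers of Purkinje cells were called downregulated in 4 of 5 cases, from 5843 to 6418 CPM in control to 3121 to 3427 CPM in Pcp2-cre mice, and granule cell markers in 0 of 4. Markers of astrocytes and Bergmann glia went both ways, with *Gfap* (1.94) and *Aqp4* (0.51) called upregulated, *Slc1a3* (-0.22) and *Gdf10* (-0.25) lower at an adjusted p of at most 0.05 in edgeR's test, and *Hopx* (-0.06) not passing it, all named after their values were seen. Their sum was 1751 to 1821 CPM in control and 2046 to 2129 CPM in Pcp2-cre mice. Within it the mean of *Gfap* went from 121 to 463 CPM and that of *Slc1a3* from 1089 to 934 CPM, so the sum does not describe every marker. Oligodendrocyte markers summed to 3053 to 3169 and 3596 to 3778 CPM, with 4 of 5 higher at that adjusted p and 0 called. The part of these cell types in the members' values was not tested.

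**Figure D4:**
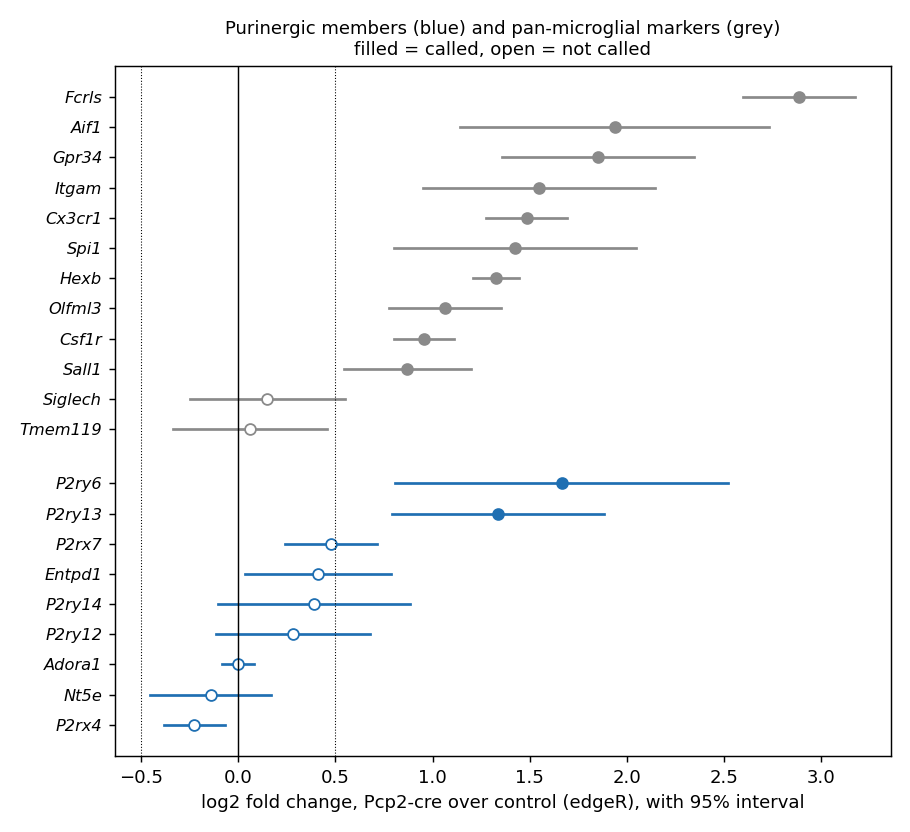
Log2 fold changes of the 9 tested members (blue) and of 12 pan-microglial markers (grey), with unadjusted 95% intervals derived from edgeR's test statistic. Filled points are called genes and dotted lines mark the threshold of 0.5 in each direction. *P2ry6* and *P2ry13* lie within the range of the called markers, and *P2ry12* (0.28) lies near *Siglech* (0.15) and *Tmem119* (0.06).

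Each member was also expressed relative to the mean log2 CPM of these 12 markers in the same mouse. That mean was 1.24 higher in Pcp2-cre mice, so a gene with no change in CPM stands about as much lower on this scale, as *Adora1* did with a difference of -1.24. Of all tested genes 97.6% lay lower in every Pcp2-cre mouse than in any control, and so did 7 of the 9 tested members, which is no result about the members. The other 2 were *P2ry13* and *P2ry6*. *P2ry13* stood at -1.69, -1.07 and -1.42 in controls 1, 2 and 3 and at -1.55, -1.50 and -1.15 in Pcp2-cre mice, with overlapping groups and a difference of -0.01 (exact permutation p = 1). This small difference depended on the values and markers used, since it was -0.22 with FPKM values and -0.30 without *Tmem119*, *Sall1* and *Siglech* (exact permutation p = 0.20 in both). *P2ry6* also overlapped between genotypes, with a difference of 0.10 (exact permutation p = 0.80) that became -0.19 without those 3 markers. *P2ry12* stood at 0.19, 0.74 and 0.24 in controls and at -0.41, -0.88 and -0.47 in Pcp2-cre mice. Its difference was -0.98 (exact permutation p = 0.10, adjusted p = 0.125 over 10 members), -0.76 with FPKM values and -1.27 without those 3 markers. *Adora3* was too rare to be read on this scale, since its groups separated with a prior count of 2 and overlapped with 0.5.

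**Figure D5:**
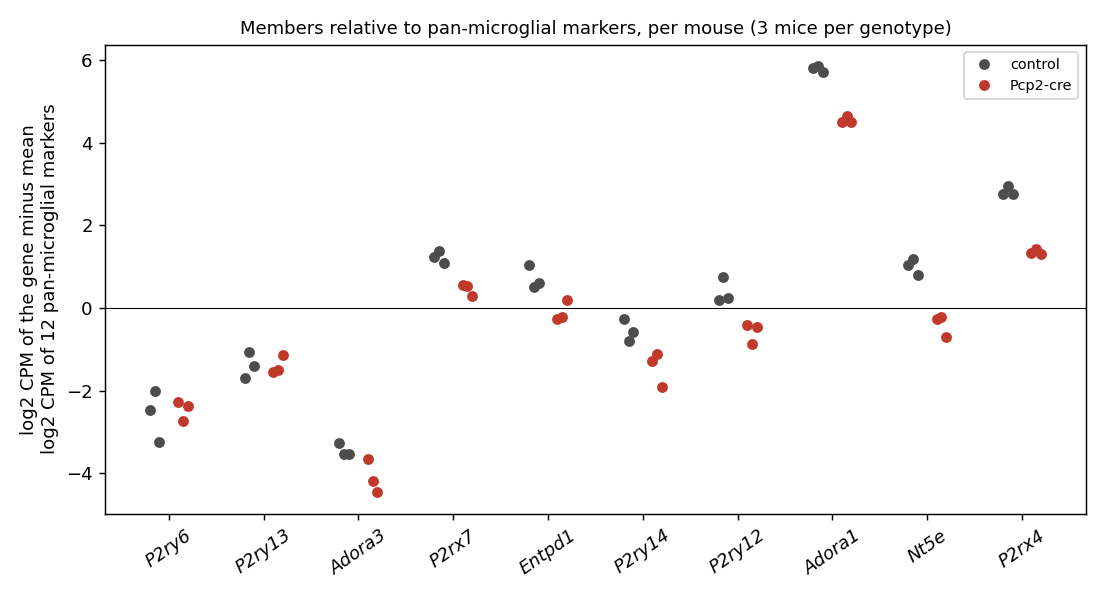
Members relative to microglial markers in each mouse. The vertical axis is log2 CPM of the gene minus the mean log2 CPM of 12 pan-microglial markers, with control mice in grey and Pcp2-cre mice in red. The genotypes overlap for *P2ry6* and *P2ry13*. The other genes lie lower in Pcp2-cre mice, as 97.6% of all tested genes did beside a marker mean 1.24 higher, and *Adora3* rests on at most 5 counts.

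The rest of the pathway was examined as a list of 35 genes, namely the other P2X, P2Y and adenosine receptors, other ectonucleotidases, enzymes and transporters of nucleosides, routes of nucleotide release and partners downstream of the microglial receptors. Of these 23 were tested, 0 were called upregulated and 1 downregulated, beside 1.37% and 1.79% of all tested genes. The median of their log2 fold changes was 0.08. At an unadjusted p under 0.05 in edgeR's test, 3 were higher and 1 lower, beside 8.36% and 9.67% of all tested genes. DESeq2 called 0 in either direction. None of the other receptors was called. Of 5 other P2X genes 2 were tested, *P2rx3* (-0.06) and *P2rx6* (-0.06), and of 3 other P2Y genes *P2ry1* (0.19) and *P2ry2* (0.03). *Adora2a* and *Adora2b* had log2 fold changes of 0.08 and 0.74, the latter with an edgeR adjusted p of 0.263.

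The gene called downregulated was *Enpp2*, which encodes autotaxin, an enzyme that makes lysophosphatidic acid and is abundant in choroid plexus. It had 6342, 6914 and 1324 counts in controls 1, 2 and 3 and 1056, 1231 and 1182 counts in Pcp2-cre mice. Control mouse 3, at 131 CPM, lay below all 3 Pcp2-cre mice (139 to 175 CPM), and the choroid plexus markers were high in the same 2 controls as *Enpp2*. Its log2 fold change was -2.09 (edgeR adjusted p = 0.00112), but 0.019 once a score of choroid plexus markers entered the fit and 0.21 without control mice 1 and 2. That score was 2.41 and 2.91 in control mice 1 and 2. Control mouse 3 (-1.48) was the only control in the range of the Pcp2-cre mice (-1.78 to -0.63). The 2 alternative values therefore both rest largely on control mouse 3 and are not independent.

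Among the other abundant genes of the list, *Adk*, the kinase that clears adenosine, measured 20.5 ± 0.437 FPKM in controls against 21.9 ± 1.27 FPKM (SD, n = 3 mice each). *Panx2*, a pannexin channel gene, and the equilibrative nucleoside transporters *Slc29a1* and *Slc29a2* lay within 0.05 of 0 on the log2 scale. None of these 4 genes was called, and the sign of each turned in some alternatives. Of the downstream partners 4 of 6 were tested and 0 called. *Kcnk13*, which encodes the potassium channel THIK-1 of microglia, had a log2 fold change of 0.06. *Nlrp3* stayed under the filter with 3, 4 and 5 counts in control and 6 in each Pcp2-cre mouse, *Casp1* had a log2 fold change of 0.30, and *Il1b* had at most 3 counts in a mouse. The genes of this list whose groups did not overlap in CPM were *Entpd3*, *Gsdmd* and *Nlrp3* (higher) and *Alpl* (lower), named after their values were seen. Among all tested genes 10.8% lay higher and 11.4% lower without overlap, so these separations are no result about the list. *Nlrp3* was not tested, and the others did not pass edgeR's test after adjustment.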

How the data were processed

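RNA from whole cerebella of 6 mice was sequenced as poly A-enriched, paired-end libraries. STAR alignment of trimmed reads to GRCm39 and counting by featureCounts and StringTie over Gencode features were done by the authors. Versions, Gencode release, strand setting and the treatment of multi-mapping reads are not given in the sources used here. The deposited counts (53746 genes) are raw, and the deposited FPKM values (55005 genes) are scaled by the authors to feature length and library size. The FPKM values are not these counts divided by a fixed length per gene. For *P2ry12* the length implied by the 2 values was 2995 bases in control mouse 2 and 1898 bases in Pcp2-cre mouse 2. Groups, sex and mouse numbers came from the labels, and 0 columns of per-sample values were left unused. Total counts were 6733178 to 10178218.

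The quasi-likelihood test of edgeR 4.0.16 was fitted in R 4.3.3 to all genes kept by filterByExpr, after TMM scaling, with Benjamini-Hochberg adjustment over 16961 genes. Ratios between genes were compared by exact permutation of mice, on log2 CPM with a prior count of 2. Alternatives were DESeq2 1.42.0, its size factors, other count filters, a term for mouse number (replicate block), for sex or for choroid plexus markers, limma 3.58.1 on log2 FPKM with a pseudocount of 1 or 0.1, each mouse left out and, for ratios, a prior count of 0.5 or fewer markers. The main edgeR fit alone was tested on simulated counts, with changes placed only in genes of higher counts than *P2ry13* and *P2ry6* had. The alternatives and the permutation tests were not tested in this way. The members, lists and tests were chosen with earlier results of these data known. Named genes were the members, pathway genes with an adjusted p of at most 0.05, the 5 most abundant pathway genes and 4 microglial markers. Other pathway genes and markers were named after their values were seen. *Acpp* was matched through its identifier. Coordinates and sequences came from Gencode M39 and GRCm39.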

Additional observations from a re-analysis of the deposited data

How the results depend on the processing

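The call of *P2ry13* was kept in all alternatives run. The number of members called upregulated was 2, and 1 with DESeq2, with at least 10 counts in every mouse (which left *P2ry6* untested), and with limma on log2(FPKM + 1) or log2(FPKM + 0.1). With each mouse left out it ranged from 1 to 3. The number called downregulated was 0 throughout. For the wider pathway list the 1 downregulated call, *Enpp2*, went to 0 with DESeq2, with the choroid plexus score, with either FPKM pseudocount and without control mice 1 and 2 together, an alternative chosen after seeing the data that assumes that the lone control varies like the other mice, and it was 1 with each mouse left out. The log2 fold change of *Enpp2* was -2.09, 0.019 with the choroid plexus score and 0.21 without those 2 mice. Both of these alternatives rest largely on control mouse 3. The cause of the lost calls was not tested. The adjusted p of *P2rx7* was at most 0.05 in 10 of 16 alternatives. The sign of the uncalled change of *P2rx4* turned with both FPKM fits. Mouse numbers do not mark shared litters in the labels, and same-numbered mice deviated together with correlations of 0.04, 0.06 and 0.17, where control mouse 1 was closer to Pcp2-cre mouse 2 (0.07). With the replicate block the number of members called upregulated was 2 and downregulated 0, and that of pathway genes 0 and 1, and no call changed. Depth limited *P2ry6* and *Adora3*, which had at most 16 and 5 counts in a mouse.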
